A study of Mus musculus with 6 samples.

Results

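The SLC25 family holds the carriers that move metabolites, nucleotides, cofactors and ions across the inner mitochondrial membrane. Its members were taken as every symbol of the deposited table that reads *Slc25a* followed by a number, except *Slc25a17*, the peroxisomal member, which left 46 genes of the 52089 symbols in the table. Of these, 29 reached a mean of 1 RPKM (the reads on a transcript per kilobase of its length, scaled to the depth of the library) over the 6 libraries and were tested, and 17 stayed below it. The samples are primary brite adipocytes, thermogenic fat cells grown from the stromal-vascular fraction of inguinal white adipose tissue of 129SvEv mice. Per the methods of the study, the mice were males of 5 to 6 weeks. Both groups were induced for 2 days, differentiated for 1 day with rosiglitazone, reverse transfected with an LNA gapmer, an antisense oligonucleotide that directs cleavage of its target RNA, at 50 nM, and harvested 24 h later. The *Ctcflos* knockdown (KD) group received 1 oligonucleotide against the long noncoding RNA *Ctcflos*, and the control group received a nontargeting one, with 3 libraries each. The comparison asks which carriers differ in RNA level after *Ctcflos* KD.

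Most of the proteins encoded by the nuclear SLC25 genes work as antiporters: the carrier opens alternately to the cytosol and to the matrix and exchanges one substrate for another. In thermogenic adipocytes the family supplies respiration with phosphate, ADP, acylcarnitines and substrates of the citric acid cycle. *Ucp1*, the uncoupling protein that lets protons back into the matrix and so releases heat, belongs to the same protein family under another symbol.

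Carriers share a short signature in each of their tandem repeats: a proline, any residue, an acidic residue, 2 further residues and a basic residue. A search of the Gencode vM21 coding sequences for 18 bases that encode it found 3 signatures in 27 members, 2 in 12, 1 in 4 and none in 3 members (*Slc25a46*, *Slc25a51* and *Slc25a53*). No match says only that these exact residues are not encoded in a row. The coding sequences run from 265 to 677 codons with a median of 319. The coding signatures of the most abundant pair, the ADP/ATP carriers *Slc25a4* and *Slc25a5*, and of 4 members called changed, the 2 higher ones and the 2 lower ones of largest fold change reported here, are shown because they mark the family and show how far even the closest paralogs differ in bases. Capitals mark the codons of the proline, the acidic and the basic residue, and the sequences read 5′ to 3′ on the coding strand.
Slc25a4 signature 1: CCGatcGAGagggtcAAA
Slc25a5 signature 1: CCCatcGAGagggtcAAG
Slc25a4 signature 2: CCGctgGACtttgctAGG
Slc25a5 signature 2: CCTcttGATtttgccCGT
Slc25a4 signature 3: CCGtttGACactgttCGT
Slc25a5 signature 3: CCTtttGACacggttCGC
Slc25a24 signature 1: CCTttgGATcgcctcAAG
Slc25a24 signature 2: CCCatgGAGgttttgAAA
Slc25a37 signature 1: CCGgtgGACtccgtgAAG
Slc25a34 signature 1: CCCctgGAAgtggtaAAG
Slc25a42 signature 1: CCCctgGACcggaccAAG

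The coding sequences of *Slc25a4* and *Slc25a5* were 77.6% identical, and their longest shared run was 20 bases. In the other pairs compared, from *Slc25a12* and *Slc25a13* at 70.8% to *Slc25a39* and *Slc25a40* at 55.0%, the longest shared run was between 12 and 25 bases, shorter than a read of these libraries. Further pairs were not compared, among them *Slc25a24* with *Slc25a54*, which lies near it on chromosome 3, and *Slc25a31* with *Slc25a4* or *Slc25a5*.

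The recovered depth was 60.6 to 75.5 mio mapped reads in KD and 62.52 to 79.26 mio in control libraries, so that 1 read on 1 kb is worth 0.0126 to 0.0165 RPKM. *Ctcflos* itself stood at 0.0969, 0.0705 and 0.21 RPKM in KD libraries 1 to 3 and at 0.748, 0.751 and 0.84 RPKM in control libraries 1 to 3 (log2 fold change -0.66, SE 0.084, unfiltered limma fit, adjusted p = 0.025). KD library 3 kept the most *Ctcflos*. It was also the KD library nearest to the control mean in 21 of the 29 members tested, against 57.4% of all genes tested. Among the members called changed it was nearest in 7 of 10, against 78.5% of all genes called. Control library 2 was the lowest control in 23 of 29 members, or 79.3%, against 51.3% of all genes tested. The labels do not say whether the libraries come from separate cultures, so the p-values measure the spread between these libraries, which may be technical. Adipocyte markers were high in both groups, and their summed level was 4440.3 to 5921.0 RPKM in KD and 6109.0 to 6768.7 RPKM in control libraries, with 6 of 8 lower without overlap and 1, *Cebpa*, called lower. Of 5 brite markers tested, 3 were called lower (*Ucp1*, *Ppargc1a* and *Elovl3*), and none of the 5 was called higher. *Dio2*, also a brite marker, was below the filter and higher in KD without overlap. It was at 0.347, 0.589 and 0.293 RPKM in KD and 0.128, 0.206 and 0.256 RPKM in controls (unfiltered limma fit, adjusted p = 0.2). Of the macrophage and leukocyte markers, 1 was tested and called higher (*Cd68*), with sums of 3.32 to 5.44 RPKM in KD and 0.952 to 2.83 RPKM in control libraries. *Csf1r*, of the same list and below the filter, was at 1.31, 1.48 and 1.1 RPKM in KD and 0.269, 0.833 and 0.438 RPKM in controls, higher without overlap (unfiltered limma fit, adjusted p = 0.066). *Ptprc*, also below the filter, went the other way: it was at or below 0.0486 RPKM in every library and lower in KD without overlap. *Itgam* was at or below 0.0513 RPKM in every library, with overlap. Of 4 progenitor markers tested, 1 was called lower (*Pdgfra*), with sums of 178.7 to 398.7 RPKM in KD and 274.6 to 448.9 RPKM in controls, and 0 of 2 smooth muscle markers were called. Endothelial markers, all below the filter, summed to 0.647 to 0.922 RPKM in KD and 1.07 to 1.35 RPKM in control libraries. *Pecam1* and *Tek* were lower in KD without overlap, and *Cdh5* and *Kdr* overlapped. Over all genes tested, 12.4% were called lower, 11.5% were called higher and 21.9% lay lower without overlap. The part of cell composition in the results was not tested, and in these bulk samples fewer cells of a type and less RNA per cell cannot be told apart.

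The levels of the family spanned several orders of magnitude. *Slc25a5* and *Slc25a4*, which exchange matrix ATP for cytosolic ADP, were the most abundant members, with control means of 187.1 ± 7.7 and 128.1 ± 6.45 RPKM (SD, n = 3, as for all means below). *Slc25a3*, which carries phosphate and copper, followed with 52.0 ± 2.72 RPKM. A control mean of at least 10 RPKM was reached by 11 members and a mean under 1 RPKM was found for 18. Neighbours in this order were often within their spread: *Slc25a20* (35.5 ± 3.38), *Slc25a11* (32.2 ± 2.61), *Slc25a51* (31.5 ± 4.13) and *Slc25a10* (28.4 ± 3.57) each lay within the spread of the next. The RPKM summed over the 46 genes was 561.4, 596.9 and 593.3 in KD and 666.7, 606.3 and 695.9 in control libraries, so every KD library lay below every control, by little against control 2. *Slc25a4* and *Slc25a5* made up 39.4%, 42.6% and 48.5% of this sum in KD and 46.4%, 50.3% and 47.6% in controls. Neither was called changed, and the sum says little about the less abundant members. The RPKM levels are means over all lines of a gene. On curated RefSeq lines alone, *Slc25a5* stood at 373.1 ± 14.7 RPKM in controls and *Slc25a4* at 157.1 ± 8.04.

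**Figure D1:**
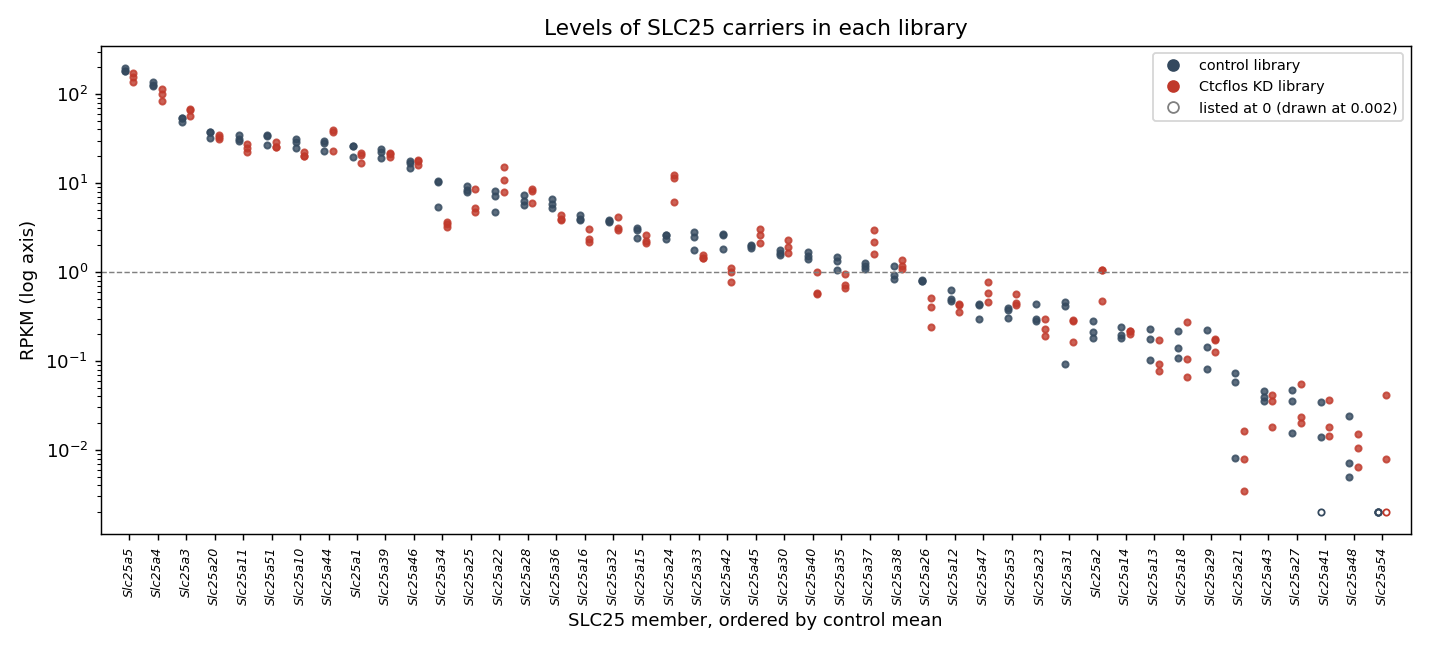
RPKM (log axis) of the SLC25 genes reported here in the 3 control and the 3 *Ctcflos* KD libraries, 1 point per library, ordered by control mean, with values listed at 0 drawn as open points at the bottom edge and a dashed line at 1 RPKM. Levels fall from 187.1 RPKM for *Slc25a5* to 0, and the groups stand furthest apart above 1 RPKM for *Slc25a24*, higher in KD, and for *Slc25a34* and *Slc25a42*, lower in KD.

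After *Ctcflos* KD, 10 of the 29 members tested were called changed at an adjusted p under 0.05 (limma, adjusted over all 11701 genes tested), which is 34.5% of them beside 24.0% of all genes tested. *Slc25a24* and *Slc25a37* rose, 6.9% of the members beside 11.5% of all genes. In all 8 members fell, among them *Slc25a10*, *Slc25a16*, *Slc25a33*, *Slc25a34*, *Slc25a36*, *Slc25a40* and *Slc25a42*, which is 27.6% of the members beside 12.4% of all genes. The log2 fold change was negative in 19 members, or 65.5%, and in 46.8% of all genes tested, and its median was -0.23 in the members and 0.028 in all genes. The groups did not overlap in 16 members, or 55.2%, beside 44.8% of all genes, 12 of them, or 41.4%, with KD lower beside 21.9% of all genes, and 4, or 13.8%, with KD higher beside 22.9%. An unadjusted p under 0.05 was found for 16 members, or 55.2%, beside 38.9% of all genes. The calls depended on single libraries of both groups. Without control library 1 or without control library 3, 1 member, *Slc25a24*, was called, while 3.6% and 3.16% of all genes were. Without KD library 1 or 2, 4 members were called each time, beside 10.1% and 9.31% of all genes, and without control library 2, 9 members beside 13.5%. Without KD library 3, 19 members were called, 7 higher and 12 lower, beside 41.1% of all genes. Those of them not called with all 6 libraries were called in this leave-out only. Over the leave-outs, their highest limma adjusted p ran from 0.13 (*Slc25a35*) to 0.69 (*Slc25a44*). *Slc25a35* fell below the filter without control library 1 or 3, so its value covers only 4 leave-outs. The adjusted p of these members without KD library 3, given below, is to be read beside these highest values. In the unfiltered fit, which called 4.71% of all genes, *Slc25a10*, *Slc25a16*, *Slc25a33*, *Slc25a36*, *Slc25a37* and *Slc25a40* were not called.

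**Figure D2:**
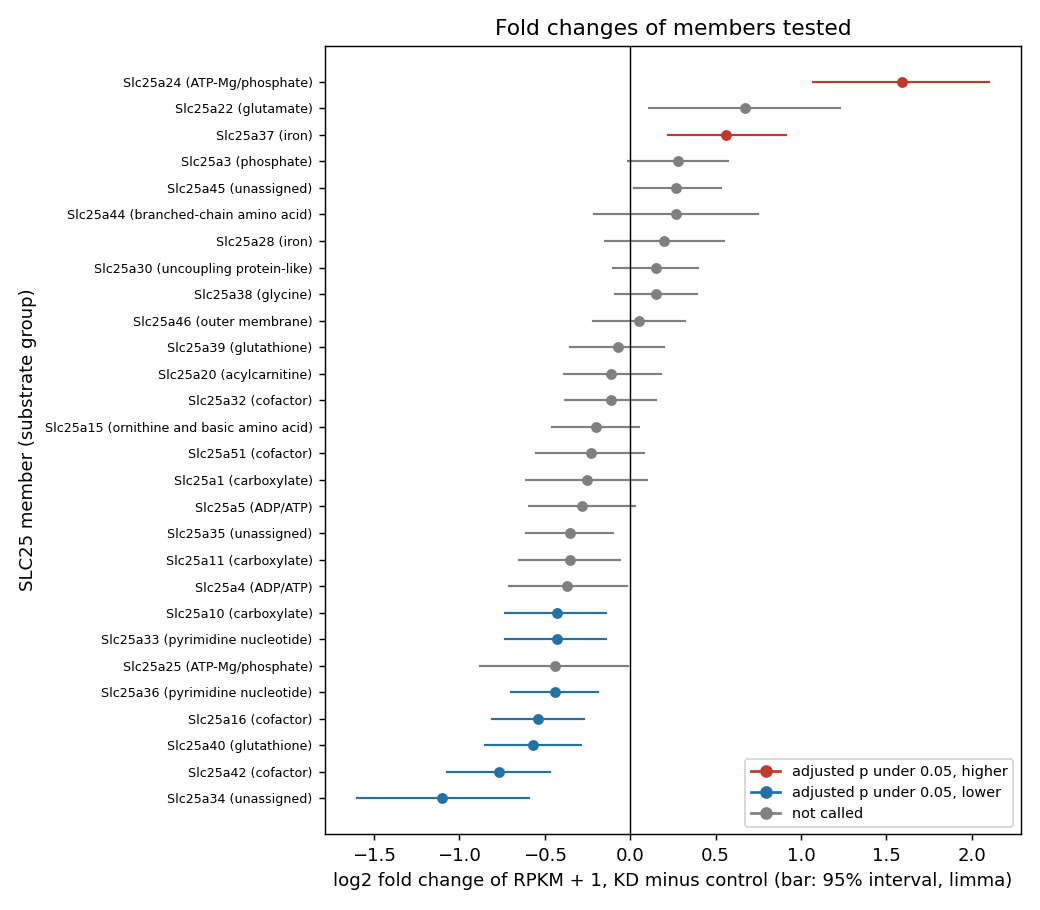
Log2 fold change of RPKM + 1, KD minus control, for the members tested and reported here, with the 95% interval of the limma fit as a bar and the substrate group in parentheses; called members are coloured. *Slc25a24* lies at 1.59 and *Slc25a34* at -1.1, and of the most abundant carriers, the intervals of *Slc25a5*, *Slc25a3* and *Slc25a20* include 0 and that of *Slc25a4*, -0.71 to -0.02, does not.

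Among the members tested, the largest rise was in the ATP-Mg/phosphate carriers. *Slc25a24* encodes a calcium-regulated carrier that exchanges ATP-Mg for phosphate and so sets the adenine nucleotide content of the matrix. It was at 12.4, 11.5 and 6.08 RPKM in KD libraries 1 to 3 and at 2.59, 2.62 and 2.36 RPKM in controls 1 to 3. The groups did not overlap, and KD library 3 stood between the other KD libraries and the controls. The means were 9.99 ± 3.42 and 2.52 ± 0.143 RPKM, a 3.96-fold difference (log2 fold change of RPKM + 1 of 1.59, SE 0.223, limma adjusted p = 0.0057). It was called without any 1 of the 6 libraries (adjusted p from 0.00018 to 0.041) and under all 7 other settings. The gene lies at chr3:109123149-109168457 on the plus strand of GRCm38, and no other annotated gene overlaps it. Its relative *Slc25a25*, from the same calcium-regulated group, was at 4.71, 5.29 and 8.62 RPKM in KD and 7.97, 9.29 and 8.38 RPKM in control libraries, with overlap through KD library 3 (log2 fold change -0.44, SE 0.19, limma adjusted p = 0.12, and 0.0027 without KD library 3). *Slc25a23* and *Slc25a41* were below the filter, at 0.191 to 0.297 and 0.0145 to 0.0364 RPKM in KD. *Slc25a24* thus made up 71.3%, 67.5% and 40.8% of the summed RPKM of *Slc25a23*, *Slc25a24* and *Slc25a25* in KD and 23.5%, 21.5% and 21.4% in controls. In the controls *Slc25a25* was the main carrier of the group, and in KD libraries 1 and 2 it was *Slc25a24*. The share differed by 37.7 percentage points (59.9% ± 16.6 against 22.1% ± 1.21, exact permutation test, two-sided, p = 0.1, below which 3 against 3 libraries cannot go).

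The mitoferrins import iron for heme and iron-sulfur clusters. *Slc25a37*, mitoferrin 1, was at 2.97, 2.19 and 1.6 RPKM in KD and 1.16, 1.27 and 1.08 RPKM in control libraries. All KD libraries lay above all controls, library 3 the least (2.26 ± 0.687 against 1.17 ± 0.0947 RPKM, 1.92-fold, log2 fold change 0.56, SE 0.15, limma adjusted p = 0.032). Of the 6 leave-outs, the call was kept in 1, without KD library 3 (adjusted p from 0.0031 to 0.12 over all 6). *Slc25a37* shares its span, chr14:69241848-69285112 on the minus strand, with *Gm20236* on the same strand and with *Gm27222*, *Gm27223* and *Gm31748* on the other, so its value is uncertain where the counting did not separate them. *Slc25a28*, mitoferrin 2 and the more abundant of the pair, was at 8.22, 8.47 and 5.92 RPKM in KD and 6.28, 5.61 and 7.27 RPKM in controls, with overlap (log2 fold change 0.2, limma adjusted p = 0.35, and 0.049 without KD library 3). The share of *Slc25a37* in the pair was 22.8% ± 3.26 in KD and 15.7% ± 2.76 in controls (exact permutation test, p = 0.1).

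Of 5 cofactor carriers, all tested, 3 were called lower and none higher, beside 12.4% and 11.5% of all genes, and the values of 4 are given here. *Slc25a42*, which brings coenzyme A into the matrix, was at 1.11, 0.77 and 1.0 RPKM in KD and 2.69, 1.82 and 2.6 RPKM in controls. The groups did not overlap, and KD stood at 40.6% of control (0.962 ± 0.175 against 2.37 ± 0.479 RPKM, log2 fold change -0.77, SE 0.13, limma adjusted p = 0.009). *Slc25a16*, a carrier linked to coenzyme A, was at 2.16, 2.33 and 3.06 RPKM in KD and 4.42, 3.87 and 3.98 RPKM in controls. KD library 3 was the highest of its group and still below every control (2.51 ± 0.479 against 4.09 ± 0.288 RPKM, log2 fold change -0.54, SE 0.118, limma adjusted p = 0.018). *Slc25a51*, the NAD carrier and the most abundant of the group, was at 29.2, 25.3 and 25.3 RPKM in KD and 34.4, 26.8 and 33.4 RPKM in controls, with overlap through control library 2 (log2 fold change -0.23, SE 0.137, limma adjusted p = 0.24). *Slc25a32*, the folate and FAD carrier, was at 2.99 to 4.12 RPKM in KD and 3.65 to 3.85 RPKM in controls (log2 fold change -0.11, limma adjusted p = 0.49).

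Both carriers of pyrimidine nucleotides, which supply the matrix for mitochondrial DNA and RNA synthesis, were called lower, beside 12.4% of all genes. Each was called in 2 of the 6 leave-outs. *Slc25a36* was at 3.85, 3.9 and 4.42 RPKM in KD and 6.63, 5.21 and 5.8 RPKM in controls (4.05 ± 0.318 against 5.88 ± 0.712 RPKM, log2 fold change -0.44, SE 0.111, limma adjusted p = 0.026). *Slc25a33* was at 1.43, 1.54 and 1.44 RPKM in KD and 2.49, 1.77 and 2.85 RPKM in controls (1.47 ± 0.0621 against 2.37 ± 0.549 RPKM, log2 fold change -0.43, SE 0.129, limma adjusted p = 0.044). Neither overlapped between groups, and for both control library 2 was the control nearest to KD. *Slc25a36* made up 73.3% ± 1.94 of the pair in KD and 71.5% ± 3.94 in controls (exact permutation test, p = 0.6).

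Of the 2 glutathione carriers, the less abundant fell. *Slc25a40* was at 0.568, 0.578 and 1.01 RPKM in KD and 1.67, 1.39 and 1.53 RPKM in controls. The groups did not overlap, with KD library 3 nearest to the controls, and KD stood at 46.9% of control (0.719 ± 0.252 against 1.53 ± 0.14 RPKM, log2 fold change -0.57, SE 0.121, limma adjusted p = 0.017). *Slc25a39*, the main carrier of the pair, was at 21.6, 21.0 and 19.6 RPKM in KD and 22.6, 19.3 and 23.9 RPKM in controls (log2 fold change -0.07, 95% interval -0.35 to 0.2, limma adjusted p = 0.68). Its share of the pair was 96.6% ± 1.32 in KD and 93.4% ± 0.457 in controls (exact permutation test, p = 0.1). With only the highest line of each gene, this difference of 3.17 percentage points became 1.19.

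The carboxylate carriers link the citric acid cycle to the cytosol. *Slc25a10*, the dicarboxylate carrier, was at 19.9, 20.1 and 22.1 RPKM in KD and 29.2, 24.6 and 31.6 RPKM in controls. It did not overlap and was the most abundant member called (20.7 ± 1.24 against 28.4 ± 3.57 RPKM, log2 fold change -0.43, SE 0.129, limma adjusted p = 0.044). *Slc25a11*, the oxoglutarate/malate carrier, was at 22.2, 25.0 and 27.7 RPKM in KD and 31.5, 29.9 and 35.0 RPKM in controls, without overlap and without a call (25.0 ± 2.79 against 32.2 ± 2.61 RPKM, log2 fold change -0.35, SE 0.129, limma adjusted p = 0.08, and 0.029 without KD library 3). *Slc25a1*, the citrate carrier that provides acetyl units for lipid synthesis, was at 21.5, 20.8 and 17.0 RPKM in KD and 26.1, 19.4 and 26.2 RPKM in controls, with overlap through control library 2 (log2 fold change -0.25, SE 0.155, limma adjusted p = 0.26). *Slc25a21*, the oxoadipate carrier, was below 0.1 RPKM in every library and was not tested.

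The carriers that feed ATP synthesis were not called. *Slc25a5* was at 137.8, 154.0 and 172.0 RPKM in KD and 184.0, 181.4 and 195.8 RPKM in controls (154.6 ± 17.1 against 187.1 ± 7.7 RPKM, log2 fold change -0.28, SE 0.133, limma adjusted p = 0.16). *Slc25a4* was at 83.5, 100.5 and 115.5 RPKM in KD and 125.1, 123.8 and 135.6 RPKM in controls (99.8 ± 16.0 against 128.1 ± 6.45 RPKM, log2 fold change -0.37, SE 0.15, limma adjusted p = 0.11, and 0.031 without KD library 3). For both, all KD libraries lay below all controls, library 3 the least so. *Slc25a5* made up 60.9% ± 1.26 of the pair in KD and 59.4% ± 0.228 in controls (exact permutation test, p = 0.1). *Slc25a31*, the testis type, was below the filter. *Slc25a3* pointed the other way, with 66.4, 67.9 and 56.6 RPKM in KD and 53.5, 48.9 and 53.7 RPKM in controls, all KD libraries above all controls (63.6 ± 6.15 against 52.0 ± 2.72 RPKM, log2 fold change 0.28, SE 0.126, limma adjusted p = 0.14, and 0.045 without KD library 3). *Slc25a20*, which brings acylcarnitines to β-oxidation, was at 31.1, 34.7 and 32.8 RPKM in KD and 37.9, 31.7 and 37.0 RPKM in controls, with overlap (log2 fold change -0.11, 95% interval -0.39 to 0.18, limma adjusted p = 0.55).

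Among the amino acid carriers no member was called. *Slc25a44*, which carries branched-chain amino acids, a fuel of thermogenic fat, was at 37.3, 39.2 and 23.1 RPKM in KD and 27.9, 22.7 and 29.6 RPKM in controls. KD library 3 fell among the controls (log2 fold change 0.27, SE 0.21, limma adjusted p = 0.37, and 0.025 without KD library 3). *Slc25a22*, the main glutamate carrier, was at 15.3, 10.7 and 7.99 RPKM in KD and 8.16, 4.73 and 7.07 RPKM in controls, again with KD library 3 inside the control range (11.3 ± 3.68 against 6.65 ± 1.75 RPKM, log2 fold change 0.67, SE 0.242, limma adjusted p = 0.078, and 0.017 without KD library 3). *Slc25a15*, ornithine carrier 1, had a log2 fold change of -0.2 (limma adjusted p = 0.21), and *Slc25a38*, the glycine carrier, of 0.15 (limma adjusted p = 0.31). The aspartate/glutamate carriers *Slc25a12* and *Slc25a13*, which take part in the malate-aspartate shuttle, were both below the filter, at 0.358 to 0.438 and 0.0764 to 0.173 RPKM in KD. *Slc25a13* made up 21.3% ± 6.58 of this pair in KD and 23.9% ± 7.08 in controls (exact permutation test, p = 0.6).

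Among the carriers with no substrate assigned here, *Slc25a34* showed the largest fall of the members tested. It was at 3.23, 3.62 and 3.42 RPKM in KD and 10.6, 5.36 and 10.4 RPKM in controls. The KD libraries lay close together, and control library 2 lay nearer to them than to the other controls (3.42 ± 0.196 against 8.81 ± 2.99 RPKM, 38.9% of control, log2 fold change -1.1, SE 0.22, limma adjusted p = 0.014). Its sequence relative *Slc25a35* was at 0.663 to 0.96 RPKM in KD and 1.04 to 1.47 RPKM in controls, without overlap (log2 fold change -0.35, SE 0.112, limma adjusted p = 0.053, and 0.021 without KD library 3). *Slc25a45* was at 2.11 to 3.01 RPKM in KD and 1.85 to 2.02 RPKM in controls (log2 fold change 0.27, limma adjusted p = 0.11, and 0.015 without KD library 3). *Slc25a30*, which resembles the uncoupling proteins, had a log2 fold change of 0.15 (limma adjusted p = 0.33), and *Slc25a46*, a member of the outer membrane, of 0.05 (limma adjusted p = 0.78). *Slc25a34* and *Slc25a42* were still called when KD library 1 or 2 was left out, with adjusted p of 0.068 and 0.054 at most over the 6 leave-outs. *Slc25a10*, *Slc25a16*, *Slc25a33*, *Slc25a36* and *Slc25a40* were called in 2 of the 6 leave-outs each.

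**Figure D3:**
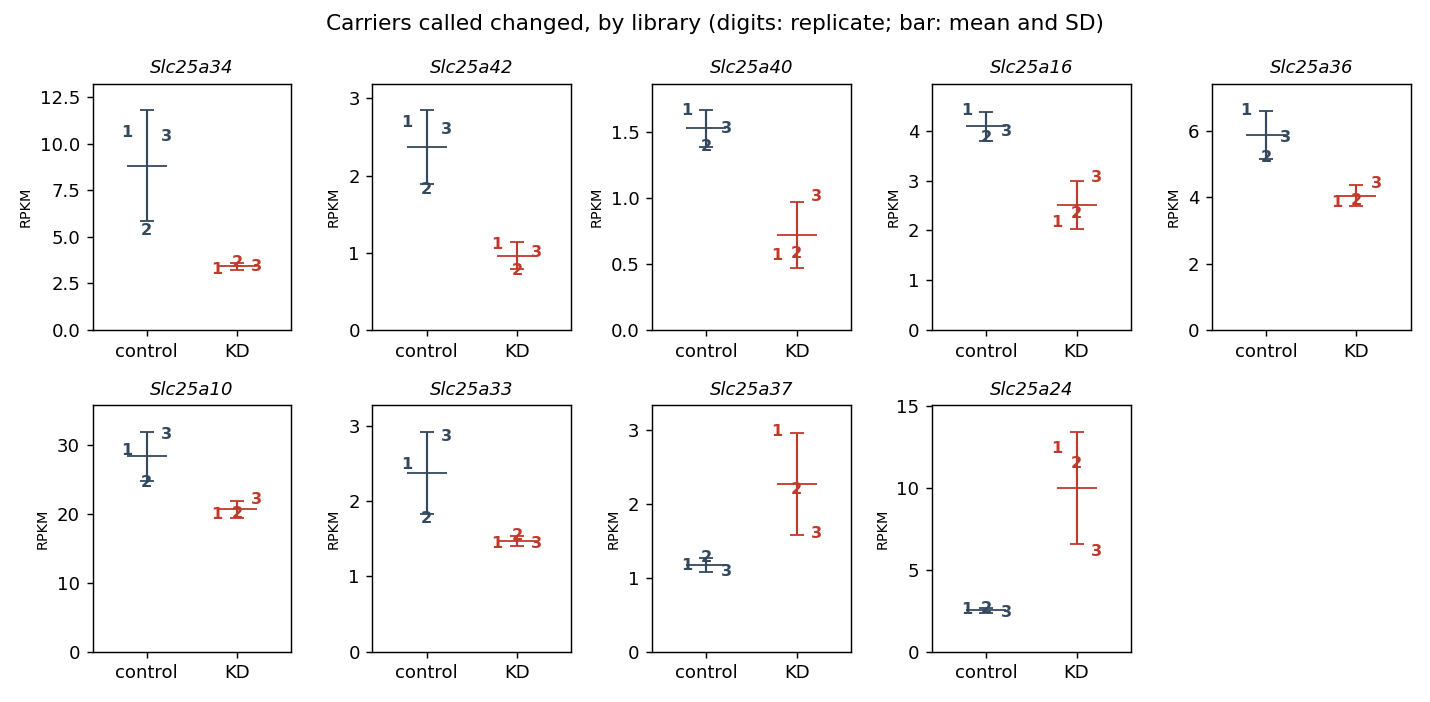
RPKM of the members called and reported here, on linear axes from 0, with each library drawn as its replicate number and the mean ± SD as a bar. *Slc25a24* and *Slc25a37* are higher in all 3 KD libraries and least so in KD library 3; in the lower members no KD library reaches a control, and control library 2 is the lowest control in each of them.

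Of the 17 members under the filter, 15 had an RPKM above 0 in every library. In 5 of the 17 the groups did not overlap, beside 20.8% of all 26634 genes that were above 0 in any library and below the filter. *Slc25a26*, which carries S-adenosylmethionine, was at 0.242, 0.401 and 0.507 RPKM in KD and 0.792, 0.797 and 0.813 RPKM in controls (limma without a filter, adjusted p = 0.075). *Slc25a2*, ornithine carrier 2, was at 1.04, 1.06 and 0.477 RPKM in KD and 0.181, 0.281 and 0.213 RPKM in controls (limma without a filter, adjusted p = 0.066). *Slc25a12* was lower, and *Slc25a47* and *Slc25a53* were higher in KD without overlap. *Slc25a54* was listed at 0 in all controls and in KD library 2. Around the threshold, the lowest mean tested was 1.03 RPKM and the highest mean not tested was 0.592 RPKM.

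RPKM is given per length, so that levels of paralogs can be set side by side, but a gene value is the mean over its listed lines. The level of a share therefore depends on the lines used. On RefSeq lines alone, *Slc25a5* and *Slc25a4* had control means of 373.1 and 157.1 RPKM, against 187.1 and 128.1 over all lines. The *Slc25a24* share differed by 35.6 percentage points on RefSeq lines alone and by 32.1 with the highest line of each gene. Of 6 shares compared, 4 did not overlap between groups, each at p = 0.1 in the exact permutation test, and the difference of the *Slc25a24* share was the largest.

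**Figure D4:**
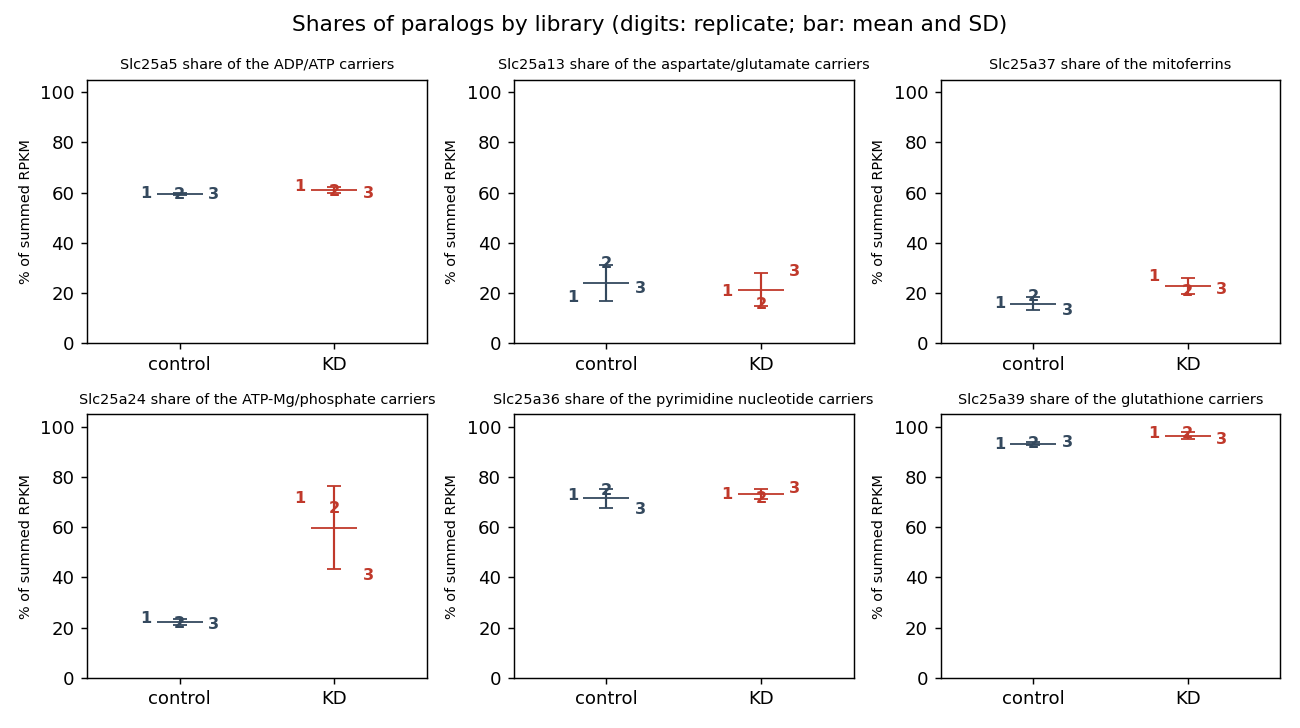
Share of 1 carrier in the summed RPKM of its paralog group, in percent from 0, with each library drawn as its replicate number and the mean ± SD as a bar. The share of *Slc25a24* rises from 22.1% in controls to 59.9% in KD, with KD library 3 at 40.8%, while the other 5 shares move by 7.11 percentage points or less.

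The study is concerned with splicing, so the use of single transcript lines was compared too. Overlapping lines of a gene share reads and do not show junctions. Of 30 members tested for usage, 0 were called (limma diffSplice, Simes p adjusted over 10027 genes), beside 0.668% of all genes. An unadjusted p under 0.05 was found for 1 member, or 3.33% of the members beside 3.69% of all genes. With the gene mean of a library subtracted from its lines first, 0 were called and 4 had an unadjusted p under 0.05, or 13.3% beside 11.4% of all genes. The largest shifts in the share of a line were gains of 3.43 percentage points in *Slc25a28* and 2.93 in *Slc25a37*. Lines of the called members moved together: all 4 lines of *Slc25a24* with at least 1 RPKM were at 382.8% to 427.1% of control, all 7 of *Slc25a37* at 174.3% to 260.3%, all 15 of *Slc25a36* at 56.8% to 72.3% and all 9 of *Slc25a10* at 71.5% to 78.6%.

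**Figure D5:**
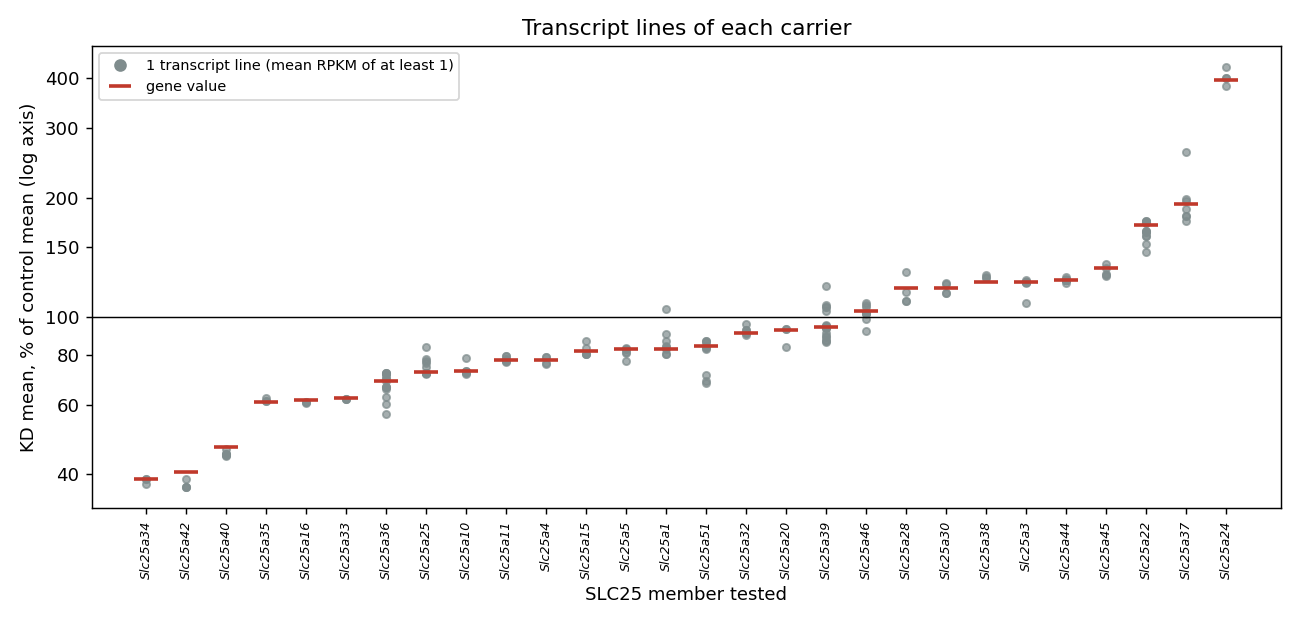
Mean RPKM of KD as a percentage of the control mean (log axis) for each transcript line with at least 1 RPKM (grey points) and for the gene (red bar), for the members tested and reported here. In the members called, every line lies on the same side of 100% as the gene; in *Slc25a1*, *Slc25a39* and *Slc25a46*, which were not called, lines lie on both sides.

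Among the members called lower, *Slc25a10*, *Slc25a16*, *Slc25a33* and *Slc25a36* share part of their span with a gene on the other strand, *Slc25a16* also with *Gm16128* on its own strand, and no source used here states that the strand was counted. *Slc25a34* (chr4:141618824-141623821), *Slc25a40* (chr5:8422850-8454797) and *Slc25a42* (chr8:70184340-70212305, all GRCm38) have no such neighbour.

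To describe the promoters of the members, the 250 bases before the gene start (RefSeq, GRCm38.p6) were searched on both strands in the 35 members that have a promoter in the table. The E-box CACGTG was found in 7 of them, or 20.0%, against 10.59% of the genes tested with a promoter and 6.86% of all promoters. The 35 include members below the filter, so the genes tested are not a like set for any of these motifs. Of those with the E-box, *Slc25a13*, *Slc25a14* and *Slc25a31* were below the filter. The cyclic AMP response element TGACGTCA was found in 2 members, *Slc25a25* and *Slc25a36*, or 5.7%, against 3.12% of the genes tested, and the GABP motif CCGGAAGT in 1, *Slc25a20*, or 2.9%, against 7.68%. The perfect palindrome of NRF1, the ERR motif TCAAGGTCA and the perfect DR1 repeat were found in 0 members, against 2.01%, 0.29% and 0.04% of the genes tested. Of the members called lower, 7 have a promoter in the table, and 2 of these hold an E-box, *Slc25a33* and *Slc25a36*. Of the 27 members with a promoter that were not called or not tested, 5 hold it, or 18.5% (*Slc25a1*, *Slc25a13*, *Slc25a14*, *Slc25a15* and *Slc25a31*). The windows of *Slc25a36* and *Slc25a33* are shown as examples, and a link between the motif and the change in level was not tested. Capitals mark the motif, and the sequences read 5′ to 3′ on the strand of the gene, minus in each case: *Slc25a36* at chr9:97111213-97111238 with the E-box and chr9:97111185-97111212 with the response element, and *Slc25a33* at chr4:149774268-149774285.
Slc25a36 E-box: cctgggcgatCACGTGaaagaggcgt
Slc25a36 response element: gcgaacctcgTGACGTCAcgcggcctaa
Slc25a33 E-box: cggcctccgcCACGTGac
A match describes letters and is no evidence of binding.

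Other genes of mitochondrial transport and import, and the peroxisomal *Slc25a17*, give the setting of these values. Of 6 SLC25 proteins under other symbols, all tested, 1 was called lower and none higher. *Ucp1* was at 23.6, 26.1 and 12.4 RPKM in KD and 67.0, 27.1 and 57.3 RPKM in controls, with KD library 2 and control library 2 nearly level (20.7 ± 7.3 against 50.5 ± 20.9 RPKM, log2 fold change -1.21, SE 0.371, limma adjusted p = 0.048). *Ucp2*, *Ucp3*, *Mtch1*, *Mtch2* and the excluded *Slc25a17* were not called. Of 11 tested genes that import carriers from the cytosol into the inner membrane, such as *Tomm70a* and *Timm22*, 0 were called by limma, 3 lay higher and 3 lower without overlap (22.9% and 21.9% of all genes), and the median log2 fold change was -0.16. Of 15 other transporters of the mitochondrial membranes tested, 6 were called lower and none higher, beside 12.4% and 11.5% of all genes, with a median log2 fold change of -0.31. *Mcu*, the pore of the calcium uniporter, was at 0.496, 0.54 and 0.756 RPKM in KD and 2.06, 1.99 and 2.16 RPKM in controls (log2 fold change -0.95, SE 0.0968, limma adjusted p = 0.0026). Its gatekeeper *Micu2* (2.42 ± 0.33 against 6.3 ± 0.599 RPKM, log2 fold change -1.1, limma adjusted p = 0.0026) was lower too. Also called were *Mpc1*, a subunit of the pyruvate carrier (log2 fold change -0.57, limma adjusted p = 0.041), and *Sfxn1*, a serine carrier (log2 fold change -0.96, limma adjusted p = 0.018).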

How the data were processed

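RNA of 6 libraries was prepared with a stranded total RNA kit and sequenced in paired-end reads. The authors deposited 1 table of RPKM per transcript accession, written with decimal commas. How it was made, and whether strand was used, is not given in the sources used here; STAR and GRCm38 are stated for the splice analysis. Of 168326 lines, 305 exact repeats were removed. RPKM was averaged over the lines of each symbol (357 lines for the members). Fits used limma 3.58.1 (R 4.3.3) on log2(RPKM + 1) for all genes of mean RPKM at least 1, Benjamini-Hochberg adjusted over all genes tested, and diffSplice for lines. Fold changes on this scale understate those of low genes. Scripts were tested on simulated data. Depth was recovered from low values of Ensembl lines with Gencode vM21 length, at least 95.1% of which were whole reads within 0.03 reads. Values in every library are given for members called and for the 10 with the highest control mean, others as ranges or examples. Members, lists and tests were chosen with earlier results of these data known. Alternatives are named in the closing section. Counts cover all members and lists, but the values of a few genes are not reported here.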

Additional observations from a re-analysis of the deposited data

How the results depend on the processing

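The 10 calls were the same genes with a pseudocount of 0.1 and with repeated lines kept, 11 with median of ratios scaling or RefSeq lines alone (*Slc25a35* added) and 9 with the highest line (*Slc25a10* lost). Without a filter on low values 4 were called (1 higher, 3 lower) beside 4.71% of all genes, the median log2 fold change over the members, now including those near 0, was -0.072, and 2 members were called in usage, *Slc25a40* and *Slc25a42*. Leaving out each library gave 1 to 19 calls, 1 to 7 higher, 0 to 12 lower and 0 to 1 in usage (*Slc25a24* without KD library 3), and a median of -0.3 to -0.166; the cause was not tested. *Slc25a46* ranged from -0.02 to 0.102 on the log2 scale. With the highest line, the *Slc25a39* share differed by 1.19 percentage points. Deviations from the group mean correlated at 0.287, -0.288 and -0.418 between KD and control libraries of replicate number 1, 2 and 3. These values differ in sign and rest on 3 libraries a group, so they do not settle whether the numbers pair the libraries. With the replicate number as a block, 7 members were called, 2 higher and 5 lower, beside 14.3% of all genes. *Slc25a10*, *Slc25a33* and *Slc25a36* were lost, and 0 members were called in usage. The p-values rest on 3 libraries a group and 1 oligonucleotide against *Ctcflos*.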
